A study of Rattus norvegicus with 24 samples.

Results

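Foxp2 (ENSRNOG00000054508) is 1 of the 32883 genes in a count table of the rostral posterior hypothalamus (rPH) of the rat, and this account follows that gene and the genes whose levels moved with it from rat to rat. Foxp2 was selected on its own values in these data, because its level differed between the noise groups. Its differences between groups are therefore given as a description, without a test. Adult male Sprague-Dawley rats, 24 in all and 6 per group, went through daily handling and sound chambers and were killed 24 h after the last session. The C group heard no loud noise, and the AS, RS3 and RS7 groups heard 1, 3 and 7 sessions of loud white noise. The tissue was a bilateral block cut by hand, bounded at the sides by the mammillothalamic tracts, and it was not sorted into cells.

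Foxp2 encodes a forkhead transcription factor that binds DNA as a dimer, alone or with other members of its subfamily, and mostly represses its targets. In the rodent brain it is known from the thalamus, the striatum, the deep layers of the cortex and the Purkinje cells of the cerebellum, as well as from parts of the hypothalamus, and it is associated with vocal and motor learning. In bulk tissue such as this, a lower level can stem from fewer cells of a type or from less RNA per cell, and these cannot be told apart.

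The study left out 1 rat per group, and the 20 kept rats, 5 per group, carry the results below. The 4 rats are not numbered in the paper and were found here by recomputing the mean normalized counts of its gene list, which only 1 set of rats matched in all 808 genes. Total counts of the kept rats ran from 8087697 to 16947298, with medians of 11298078 in the C group and 14189794 in the RS7 group. The 10 most abundant genes held 12.4% to 20.3% of the counts, and C rats 21 and 22 and RS7 rat 4 had the largest shares. The block held genes of more than 1 territory. Slc17a6, the vesicular glutamate transporter of thalamic and many hypothalamic neurons, lay between 486 and 878 CPM (reads of a gene relative to the TMM-scaled library total). Avp, a peptide gene of the hypothalamus, lay between 0.0781 and 86.8 CPM, was close to absent in several RS3 and RS7 rats, and differed widely between rats of the same group.

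Foxp2 was detected in each kept rat with 326 to 1360 counts, so that counting error was between 2.71% and 5.54% of the value. In the C group the 5 rats had 43.4, 50.3, 50.3, 52.5 and 68.3 CPM, and in the AS group 43.1, 46.3, 49.6, 57.7 and 62.9 CPM. The RS3 rats had 62.7, 66.3, 70.2, 76.7 and 77.7 CPM, and the RS7 rats 72.8, 79.8, 83.3, 85.8 and 89.2 CPM. All 5 RS7 rats lay above all C and AS rats, whereas the RS3 rats overlapped C rat 23, AS rat 13 and the lower part of the RS7 group. Group means were 52.9 ± 9.24 CPM (SD, n = 5) for C, 51.9 ± 8.21 for AS, 70.7 ± 6.49 for RS3 and 82.2 ± 6.28 for RS7. C and AS, the lowest pair in this order, differed by less than the spread of either group.

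**Figure D1:**
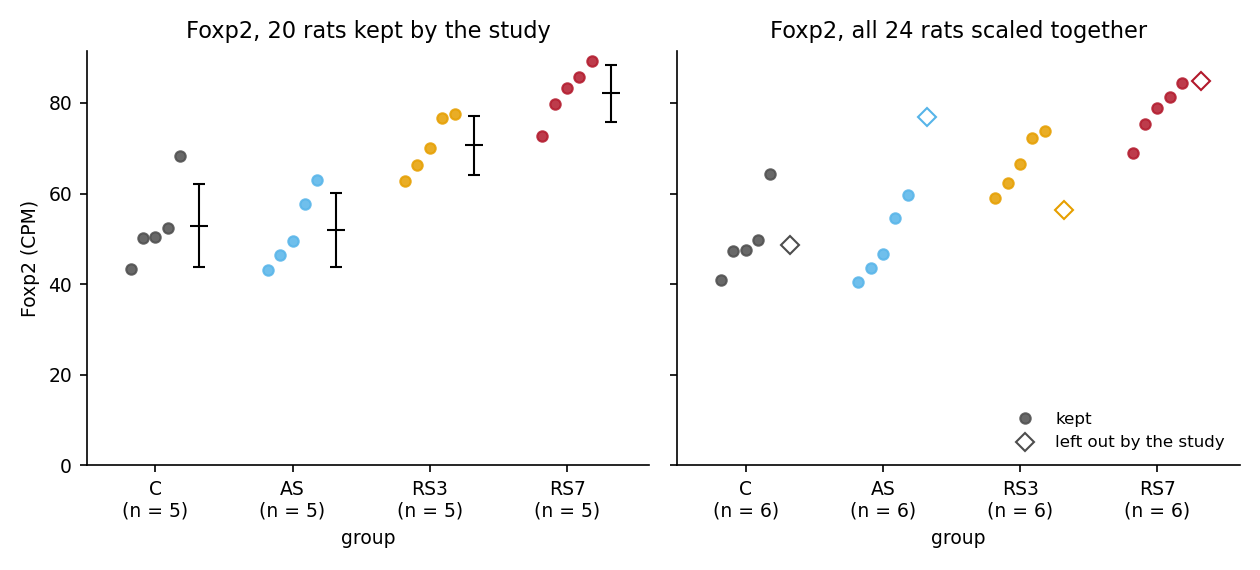
Foxp2 level in CPM (vertical axis, from 0) by group. The left panel shows each of the 20 kept rats as a point with the group mean ± SD, from 52.9 in C to 82.2 CPM in RS7, and the right panel shows all 24 rats in 1 common scaling with the 4 left-out rats as open diamonds.

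On the log2 scale and in a fit of all 4 groups, the Foxp2 difference was 0.62 (standard error 0.106) from C to RS7 and 0.66 (0.106) from AS to RS7. The difference was 0.41 (0.107) from C to RS3 and 0.45 (0.107) from AS to RS3. From RS3 to RS7 it was 0.21 (0.104), and from C to AS it was -0.04 (0.109). These comparisons share rats, so their values are not independent of each other. Of the 25 pairs made of 1 rat from each group, Foxp2 was higher in the RS3 rat in 23 pairs against C and in 24 against AS, and higher in the RS7 rat in 23 against RS3. By its log2 fold change Foxp2 was number 92 of 16202 genes from C to RS7 and number 84 from AS to RS7, while the median gene moved by -0.01 in both comparisons. The summed level of dorsal thalamus genes, described further on, also differed between the groups in the same direction.

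The 4 rats the study left out gave a mixed picture when all 24 rats were scaled together. C rat 20 had 48.7 CPM and RS7 rat 1 had 84.9 CPM, near the other rats of their groups. RS3 rat 8, at 56.4 CPM, lay below the kept RS3 rats, which began at 59.0 CPM in this scaling. AS rat 18 had 76.9 CPM, above the 59.6 CPM of the highest kept AS rat, and this value rests on 201 counts of a library of 4744531 counts. With all 24 rats the log2 difference was 0.66 (0.119) from C to RS7 and 0.58 (0.120) from AS to RS7.

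Within groups, Foxp2 also moved with the size of the library. Over the 20 rats, with group means removed, Pearson's r of log2 Foxp2 with log2 total count was 0.58 (permutation p = 0.032, adjusted over 3 technical measures) and Spearman's rho was 0.39 (permutation p = 0.18, adjusted). Without the 2 rats farthest from the Foxp2 median, C rat 23 and AS rat 13, r was 0.43. With the share of genes that had counts, r was 0.55 (adjusted permutation p = 0.0397), rho was 0.38 (adjusted permutation p = 0.18) and r without those rats was 0.36. Against the percentage of reads taken by the 10 top genes, r was -0.33 (adjusted permutation p = 0.266), rho was -0.14 (adjusted permutation p = 0.611) and r without those rats was -0.09. After all libraries had been thinned to the smallest total the C to RS7 difference of Foxp2 was 0.63, and with log2 total count as a covariate it was 0.50 (0.098).

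The genes that followed Foxp2 were found from the rats alone, without use of the group means. For each of 16201 other genes that passed the filter on low counts, the log2 CPM of each rat was taken as a deviation from its group mean and correlated with the same deviation of Foxp2 over the 20 rats. The 25 genes with the highest r and the 25 with the lowest r are called positive and negative followers here. The values of r that chose them are a description. Positive followers had r from 0.77 to 0.83, and the next gene stood at 0.77. Negative followers had r from -0.84 to -0.73, and the next gene stood at -0.73. Over all genes r had a median of -0.01 and a standard deviation of 0.32, and 90% of genes lay between -0.50 and 0.55.

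No gene passed a permutation test of r adjusted over all 16201 genes, where 0% of genes were called in either direction, with a lowest adjusted p of 0.129 for r and 0.0648 for rho. At an unadjusted permutation p under 0.05 there were 2251 genes. The order of genes near the bounds was thus loose. When 1 rat was left out, between 3 and 23 of the 25 positive followers and between 7 and 22 of the 25 negative followers were still among the 25 of their direction. C rat 23, the C rat with the highest Foxp2, gave both of the lowest numbers. Without that rat r was at least 0.66 for the positive and at most -0.60 for the negative followers, over rats that had been used to choose them.

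Of the 25 positive followers 15 carry a gene symbol, and of the 25 negative followers 3 do. Symbols were taken from the gene list of the study, which holds genes that differed between groups in these rats, and the 744 tested genes with a symbol had a median r of 0.31 with Foxp2. The named genes are thus not a neutral sample of the followers. Among followers without a symbol, ENSRNOG00000051056 (r = 0.83) and ENSRNOG00000003524 (r = 0.83) led the positive ones, and ENSRNOG00000059460 (r = -0.84) and ENSRNOG00000020039 (r = -0.82) led the negative ones.

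**Figure D2:**
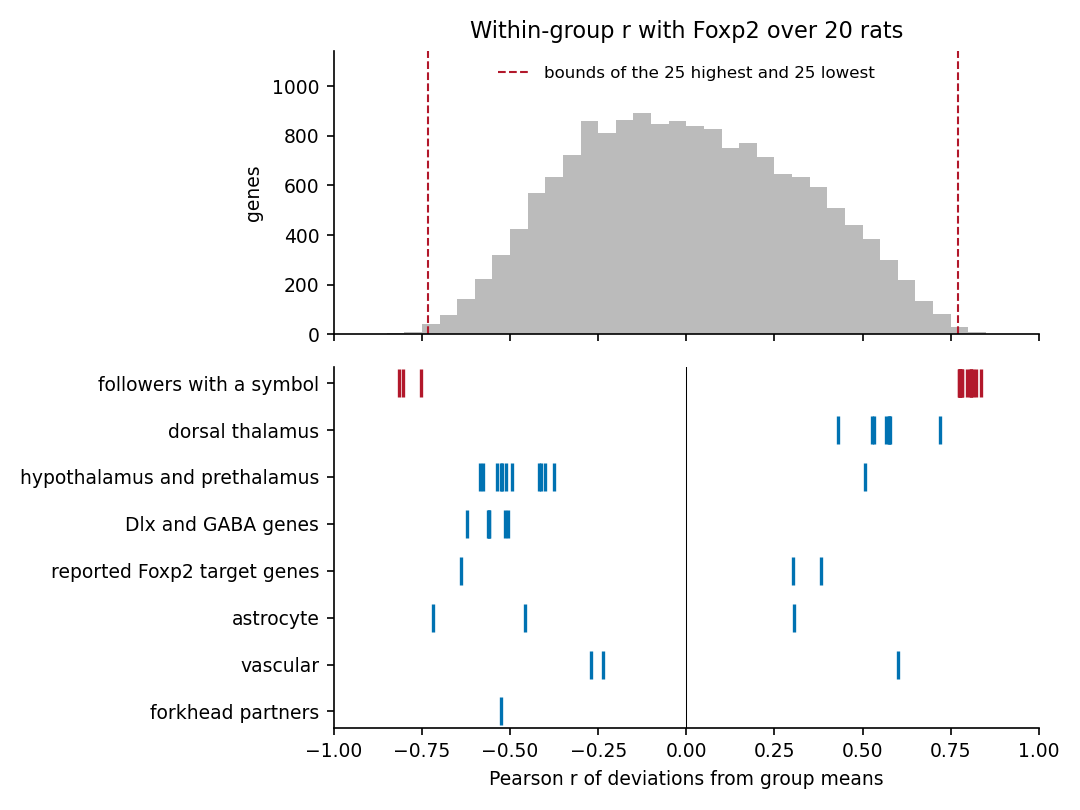
Upper panel, number of genes (vertical axis) by Pearson r of deviations from group means with Foxp2, over 16201 genes, with dashed lines at the bounds of the 25 highest (0.77) and 25 lowest (-0.73). Lower panel, r of the 18 followers with a symbol and of the listed genes on the same axis, 1 tick per gene, with all 8 dorsal thalamus genes above 0 and all 6 Dlx and GABA genes below 0.

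Kcna2 (ENSRNOG00000018285), which encodes a voltage-gated potassium channel of axons, had the highest r of all genes at 0.83 (rho = 0.87). Lynx1, a membrane-anchored modulator of nicotinic acetylcholine receptors, had r = 0.82. Insyn1, a protein of inhibitory synapses, had r = 0.81, and Gabrb2, a beta subunit of the GABA-A receptor, had r = 0.78. The receptor genes Agtr2 (angiotensin II) and Epha4 (ephrins) had r = 0.81 and r = 0.77. Regulators among them were Setd7, a lysine methyltransferase (r = 0.80), Cux2, a homeodomain transcription factor (r = 0.78), and Adarb2, a member of the RNA editing enzyme family (r = 0.78). Rap1gap, which switches off the small GTPase Rap1, had r = 0.80. Galnt14, a glycosyltransferase, Pdp1, a phosphatase that activates pyruvate dehydrogenase, and Bok, of the Bcl-2 family, each had r = 0.78. Mb21d2 had r = 0.81 and Plekhd1 had r = 0.78.

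The r of Kcna2 was 0.83 over the 10 C and AS rats and 0.90 over the 10 RS3 and RS7 rats, which are the rats that chose it, so these values are a description. It was 0.87 over all 24 rats, 0.80 after log2 total count had been regressed out, and between 0.78 and 0.90 when any 1 rat was left out. Setd7 had r = 0.83 in the C and AS rats and r = 0.93 in the RS3 and RS7 rats, but 0.25 over all 24 rats. Several others also lost most of their r with the 4 left-out rats included, among them Insyn1 (-0.10), Rap1gap (-0.26) and Cux2 (-0.11), while Agtr2 had 0.76. Of the 25 positive followers, 18 had r above 0 over all 24 rats, with a median of 0.27.

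The negative followers with a symbol were Celf6 (r = -0.81), an RNA-binding protein that regulates splicing, Penk (r = -0.80), the precursor of the enkephalin opioid peptides, and Mr1 (r = -0.75), an antigen-presenting molecule related to the major histocompatibility complex. The next genes with a symbol, which lie outside the 25, were Arhgap36, Cotl1, Slc1a3, Rerg, Cd24, Agtr1a and Sgsm1, with r between -0.73 and -0.69. Slc1a3 encodes the astrocytic glutamate transporter GLAST, Cotl1 an actin-binding protein, and Agtr1a the other main angiotensin II receptor. Agtr1a was near the lower end of what was counted, with 0.922 ± 0.407 CPM in the RS7 group. Celf6 kept r = -0.84 over all 24 rats, and Cotl1 and Sgsm1 had r = -0.77 and r = -0.81, whereas Penk had r = 0.12.

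The promoters of the genes that moved with Foxp2 were read for letters of the kind that forkhead factors bind. RefSeq windows of 300 bases on the GRCr8 assembly, of which most lies before the gene's start, were at hand for 46 of the 60 named genes other than Foxp2, and for 11 of the 18 followers with a symbol. Searched on both strands were 5 motifs, none of which is contained in another. The motif TGTTTAC was found in 3.78% of all 33469 windows and in 1 of the 46. The variant TGTTTAT was in 4.54% and in 2 of the 46, and the variant TATTTAT in 6.09% and in 4 of the 46. The variant TATTTGT was in 3.98% and in 1 of the 46, and CAAATT, another motif given for the family, in 11.5% and in 3 of the 46. Any of the 5 was in 10 of the 46 windows, against 25% of all windows, and in 1 of the 11 followers' windows, that of Mr1. Shown are the windows of Kcna2, the gene with the highest r, of Celf6, the negative follower that fell from AS to RS7, and of Rora, a nuclear receptor gene of the thalamus described further on and the only named gene with TGTTTAC, whose reverse complement stands in capitals at position 173. They lie at chr2:197393280-197393579, chr8:68870843-68871142 and chr8:78816005-78816304, all on the plus strand.
Kcna2: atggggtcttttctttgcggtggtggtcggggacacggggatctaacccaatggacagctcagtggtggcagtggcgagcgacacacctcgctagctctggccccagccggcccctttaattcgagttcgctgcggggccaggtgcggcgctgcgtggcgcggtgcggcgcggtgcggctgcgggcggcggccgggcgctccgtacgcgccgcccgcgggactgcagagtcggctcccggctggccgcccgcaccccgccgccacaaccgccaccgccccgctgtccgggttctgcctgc
Celf6: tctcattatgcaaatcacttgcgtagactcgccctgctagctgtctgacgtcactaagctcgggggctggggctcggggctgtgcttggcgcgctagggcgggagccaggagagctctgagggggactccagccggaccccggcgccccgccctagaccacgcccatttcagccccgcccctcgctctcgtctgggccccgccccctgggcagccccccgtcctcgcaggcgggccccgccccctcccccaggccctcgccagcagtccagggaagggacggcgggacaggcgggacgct
Rora: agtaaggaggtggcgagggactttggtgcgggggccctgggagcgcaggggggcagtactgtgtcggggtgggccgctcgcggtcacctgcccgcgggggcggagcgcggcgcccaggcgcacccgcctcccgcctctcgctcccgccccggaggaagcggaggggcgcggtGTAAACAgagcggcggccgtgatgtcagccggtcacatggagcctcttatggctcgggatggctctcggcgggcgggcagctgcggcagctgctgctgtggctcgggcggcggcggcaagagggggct
The windows of Kcna2 and Celf6 held none of the 5 motifs, which says only that these letters are not in this stretch.

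**Figure D3:**
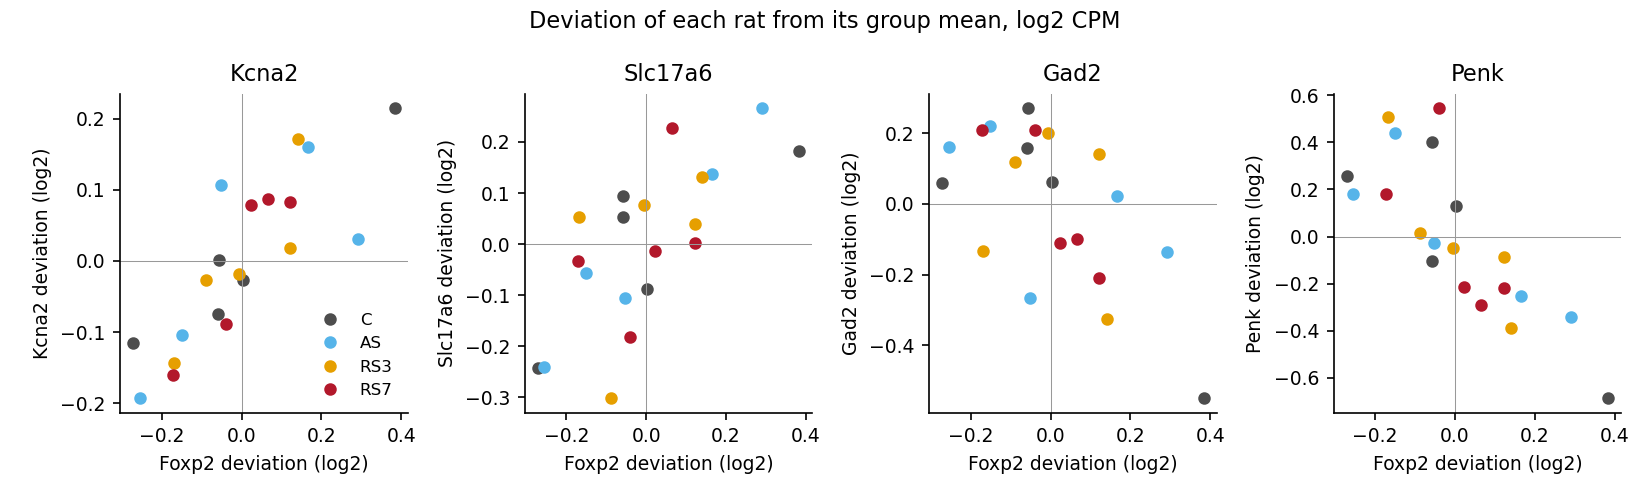
Deviation of each kept rat from its group mean in log2 CPM for Kcna2, Slc17a6, Gad2 and Penk (vertical axes) against that of Foxp2 (horizontal axes), 1 point per rat, coloured by group. Kcna2 (r = 0.83) and Slc17a6 (r = 0.72) rise with Foxp2, Gad2 (r = -0.62) and Penk (r = -0.80) fall, and C rat 23 is the rightmost point in all panels.

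The differences of the followers between groups were not used to choose them and were tested in the fit of all genes. In the AS versus RS7 comparison, 6 of the 25 positive followers rose at a Benjamini-Hochberg adjusted p of 0.05 or less in edgeR's quasi-likelihood test, where 1.19% of all 16202 genes rose, and 1 of the 25 negative followers fell, where 0.481% of all genes fell. The genes that rose were Setd7, Galnt14, Insyn1, Kcna2, Cux2 and Gabrb2, and the gene that fell was Celf6. The median log2 fold change was 0.30 for the positive and -0.10 for the negative followers, against -0.01 for all genes. It was above 0 for 24 of the 25 positive followers and below 0 for 24 of the 25 negative ones. The followers were all chosen for their r with 1 gene over the same rats. Counts of followers, here and below, are thus not counts of independent observations.

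In the C versus RS7 comparison no follower passed the adjusted threshold in edgeR, where 0.111% of all genes rose and 0.037% fell. At an unadjusted p under 0.05, 23 of the 25 positive followers were higher in RS7 (8.83% of all genes) and 15 of the 25 negative followers were lower (9.04%). The corresponding numbers from AS to RS7 were 21 (8.34% of all genes) and 6 (7.88%). The C to RS7 medians were 0.28 and -0.19, with all 25 positive followers above 0 and all 25 negative followers below 0. For C versus RS7, DESeq2 called 13 positive and 3 negative followers, where it called 1.14% of all genes higher and 0.484% lower. In limma-voom no follower was called, where 0.401% of all genes were higher and 0.235% lower. Both comparisons use the same RS7 rats.

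Setd7 (ENSRNOG00000013045) had 58.6, 59.0, 65.9, 66.7 and 70.6 CPM in the AS rats and 73.5, 76.4, 84.6, 85.6 and 86.6 CPM in the RS7 rats. The groups did not overlap, and their log2 difference was 0.34 (standard error 0.073, edgeR adjusted p = 0.0191). Its C rats, at 58.5 to 72.6 CPM, also lay below all RS7 rats, with a log2 fold change of 0.28 (edgeR adjusted p = 0.0779).

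Kcna2 had 340, 361, 397, 418 and 434 CPM in the AS rats and 433, 455, 511, 513 and 515 CPM in the RS7 rats. The ranges met at RS7 rat 2 and AS rat 15, and their log2 difference was 0.32 (standard error 0.073, edgeR adjusted p = 0.0275). In the C group it had 413 ± 38.3 CPM and in the RS3 group 458 ± 36.5 CPM.

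Gabrb2 (ENSRNOG00000003680) averaged 95.2 ± 12.0 CPM over the AS rats and 136 ± 16.3 CPM over the RS7 rats, which is 0.51 on the log2 scale (standard error 0.125, edgeR adjusted p = 0.0408). All RS7 rats, from 114 CPM, lay above all AS rats, up to 109 CPM. Galnt14 also changed by 0.51 on the log2 scale (edgeR adjusted p = 0.022), with 1 RS7 rat, at 13.8 CPM, inside the AS range of 10.5 to 14.6 CPM. Insyn1 changed by 0.29 (edgeR adjusted p = 0.0271) and Cux2 by 0.27 (edgeR adjusted p = 0.0343).

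Celf6 (ENSRNOG00000052224) had 31.2, 33.1, 34.4, 39.3 and 41.8 CPM in the AS rats and 22.2, 22.4, 23.9, 28.1 and 29.8 CPM in the RS7 rats. No RS7 rat reached the AS range, and the log2 difference was -0.51 (standard error 0.106, edgeR adjusted p = 0.0176). Penk averaged 53.8 ± 12.1 CPM over the AS rats and 32.8 ± 8.74 CPM over the RS7 rats, with a log2 fold change of -0.71 that did not pass the test (edgeR adjusted p = 0.117). Of the next genes with a symbol, Cotl1 (-0.27, edgeR adjusted p = 0.0293) and Sgsm1 (-0.30, edgeR adjusted p = 0.0294) fell from AS to RS7. Of all genes 0.481% fell, but symbols were at hand only for genes on the study's list, so the calls cannot be weighed against that share. They were kept in 5 and 4 of 10 fits without 1 rat, and not made over all 24 rats (edgeR adjusted p = 0.317 and 0.2).

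**Figure D4:**
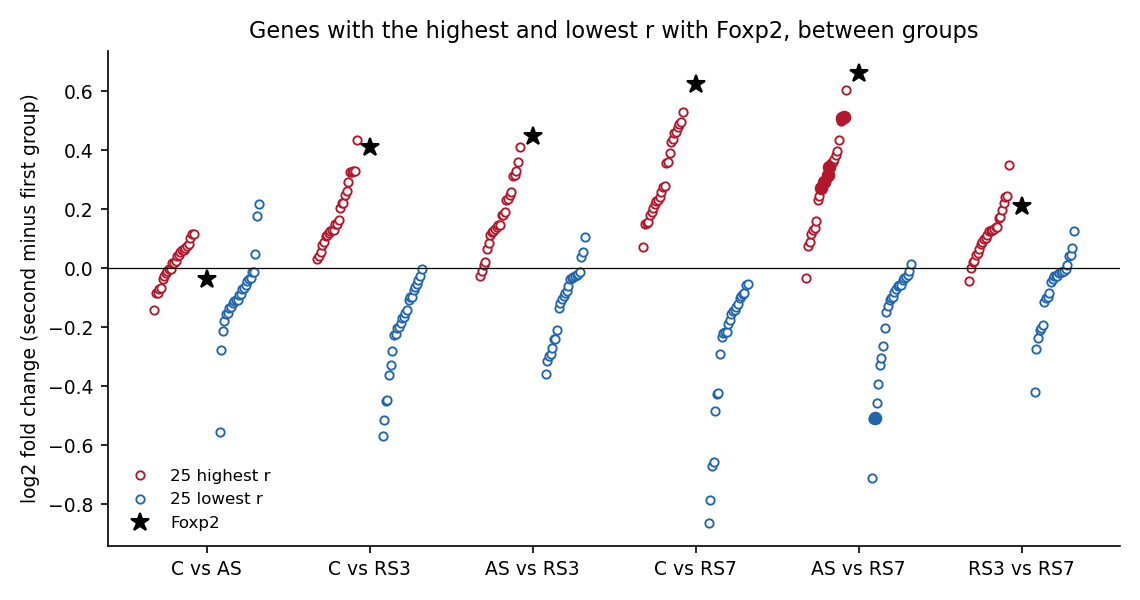
Log2 fold change (vertical axis, second group minus first) of the 25 positive (red) and 25 negative (blue) followers in the 6 comparisons, with Foxp2 as a star. Filled points passed the edgeR test at an adjusted p of 0.05, which happened only from AS to RS7, for 6 positive followers and 1 negative follower.

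The number of calls depended on single rats, among the followers as over all genes. The number of positive followers that rose from AS to RS7 was 0 when AS rat 14 or 17 or RS7 rat 3, 5 or 6 was left out, in fits where 0.251% to 0.508% of all genes rose. It was 2 without AS rat 16 (0.43% of all genes) and lay between 5 and 9 without each other rat of the 2 groups. Celf6 was also not called in any of the 5 fits that gave 0. The log2 differences moved less in the fits without 1 rat. They ran from 0.27 to 0.36 for Kcna2, from 0.31 to 0.38 for Setd7, from 0.46 to 0.57 for Gabrb2 and from -0.57 to -0.45 for Celf6. Over all 24 rats they were 0.19, 0.35, 0.54 and -0.42 in this order. Those of Kcna2 and Celf6 were thus outside their ranges, and neither gene was called there (edgeR adjusted p = 0.531 and 0.111). From C to RS7, 14 positive and 4 negative followers were called without C rat 23, where 0.84% of all genes rose and 0.637% fell. Without RS7 rat 4 these numbers were 9 and 5, where 1.73% of all genes rose and 1.7% fell. With log2 total count as a covariate, or with the summed level of the dorsal thalamus genes below, both chosen after the data were seen, edgeR called 0 of the 50 followers in either comparison. In those fits 0% of all genes were called from C to RS7. From AS to RS7 0.148% rose and 0.0123% fell with the total count, and 0.00617% rose and 0% fell with the dorsal thalamus sum, so that the 0 says nothing particular about the followers. Over all 24 rats edgeR called 3 positive followers and 0 negative ones from AS to RS7, where 0.662% of all genes rose and 0.136% fell.

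Genes of the dorsal thalamus ran with Foxp2. Of 12 genes listed, 8 could be matched, and all 8 had r above 0, with a median of 0.57 and values from 0.43 (Tcf7l2) to 0.72 (Slc17a6). These 8 are on the study's gene list and so were not chosen independently of these rats. Over all 24 rats Tcf7l2 had r = -0.30 and was the only one of them to change sign. Slc17a6 was number 86 of all genes (rho = 0.70), with an adjusted permutation p of 0.148 for r and 0.181 for rho. Lef1 and Rora had r = 0.58 each, Rorb and Ntng1 r = 0.57 each, and Plekhg1 and Synpo2 r = 0.53 each, with adjusted permutation p between 0.234 and 0.312. Tcf7l2 and Lef1 are transcription factors of the Wnt pathway, Rora and Rorb are orphan nuclear receptors, and Ntng1 is a netrin family adhesion molecule. The summed level of the 8 genes had r = 0.66 with Foxp2, and 0.64 without the 2 farthest rats. Slc17a6, also a gene of many hypothalamic neurons, made up 578 of the mean sum of 1331 CPM in C. In RS7 it made up 753 of 1730.5 CPM, so that the sum is not a measure of the thalamus alone.

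This sum also differed between groups in the direction of Foxp2. It ranged from 1109 to 1449 CPM in C, from 1130 to 1534 in AS, from 1149 to 1756 in RS3 and from 1596 to 2066 in RS7, so that all RS7 rats lay above all C and AS rats. From AS to RS7, Rora rose by 1.14 on the log2 scale (standard error 0.210, edgeR adjusted p = 0.0117), from 9.06 ± 2.43 to 20.0 ± 2.33 CPM. Rorb rose by 0.44 (standard error 0.090, edgeR adjusted p = 0.0151). The other 6 genes did not pass, and the median over the 8 was 0.46. Of all genes 1.19% rose. The 8 could be matched only through the study's list of genes that differed between groups in these rats. Their calls and medians between groups thus cannot be weighed against the shares of all genes. The call of Rora was kept in 9 and that of Rorb in 7 of 10 fits that each left out 1 rat. Over all 24 rats Rora was called (edgeR adjusted p = 0.0024) and Rorb was not (edgeR adjusted p = 0.25), where 0.662% of all genes rose. With log2 total count as a covariate neither was called (edgeR adjusted p = 0.06 and 0.0806), where 0.148% of all genes rose. From C to RS7 none of the 8 passed, where 0.111% of all genes rose, and the median was 0.41. With the log2 sum of these genes as a covariate the Foxp2 difference was 0.39 (0.101) from C to RS7, 0.42 (0.103) from AS to RS7 and 0.09 (0.085) from RS3 to RS7. The part of the dorsal thalamus genes in the result was not tested.

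Genes of GABA neurons ran against Foxp2. Of the list of Dlx and GABA genes 6 of 8 could be matched, and all 6 had r below 0, with a median of -0.56. Gad2, which encodes a glutamate decarboxylase that makes GABA, had r = -0.62 (rho = -0.58), Gad1, which encodes the other decarboxylase, had r = -0.56 (rho = -0.59), and Slc32a1, the vesicular GABA transporter, had r = -0.56 (rho = -0.59). The homeodomain genes Dlx5 and Dlx6, which specify forebrain GABA neurons, had r = -0.56 and -0.51. Adjusted permutation p lay between 0.261 and 0.331 for r in these 6 genes. C rat 23 had both the highest Foxp2 and the lowest Gad2 of its group, and without it and AS rat 13 r fell to -0.36 for Gad2 and -0.32 for Gad1. The 6 genes are again from the study's list. Over all 24 rats Slc32a1 had r = 0.0587 and was the only one of them to change sign.

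Gad1 was the member of this list that passed between groups, from AS to RS7, where 0.481% of all genes fell. As the list genes were matched through the study's list of genes that differed between groups, this call cannot be weighed against that share. It was kept in 9 of 10 fits without 1 rat. With log2 total count or the dorsal thalamus sum as a covariate it was not made (edgeR adjusted p = 0.0643 and 0.39). In those fits 0.0123% and 0% of all genes fell. Gad1 had 217, 245, 266, 297 and 327 CPM in the AS rats and 146, 158, 166, 166 and 192 CPM in the RS7 rats. There was no overlap, and the log2 difference was -0.71 (standard error 0.132, edgeR adjusted p = 0.0128). Gad2 (-0.55, edgeR adjusted p = 0.0561) and Slc32a1 (-0.52, edgeR adjusted p = 0.0541) did not pass. The summed level of the 6 genes was 851 ± 158 CPM in C, 851 ± 123 in AS, 620 ± 79.5 in RS3 and 562 ± 71.1 in RS7.

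Genes of the hypothalamus and prethalamus ran mostly against Foxp2 as well. Of 18 listed genes 12 could be matched, 11 of them with r below 0, and the median was -0.50. These 12 are on the study's gene list as well and so were not chosen independently of these rats. The lowest values were those of Baiap3 (r = -0.59), a regulator of dense-core vesicles, and Sim1 (r = -0.58), a transcription factor of the paraventricular nucleus. The peptide genes Avp, Oxt, Trh and Gal had r = -0.40, -0.41, -0.38 and -0.51. Lhx9, a homeodomain gene, was the exception with r = 0.51. Over all 24 rats Sim1 alone changed sign, with r = 0.00973. Adjusted permutation p lay between 0.179 and 0.462 for r in these 12 genes. Their summed level was 745 ± 171 CPM in C, 817 ± 129 in AS, 624 ± 113 in RS3 and 475 ± 95.7 in RS7. From AS to RS7, Magel2 fell by 0.62 on the log2 scale (edgeR adjusted p = 0.0347) and Baiap3 by 0.57 (edgeR adjusted p = 0.0326). The other 10 did not pass, where 0.481% of all genes fell. As the 12 were matched through a list of genes that differed between groups, their calls cannot be weighed against that share. The calls of Magel2 and Baiap3 were kept in 3 and 4 of 10 fits without 1 rat. Neither was made over all 24 rats (edgeR adjusted p = 0.0805 and 0.395). The part of these genes and of the Dlx and GABA genes in the result was not tested.

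**Figure D5:**
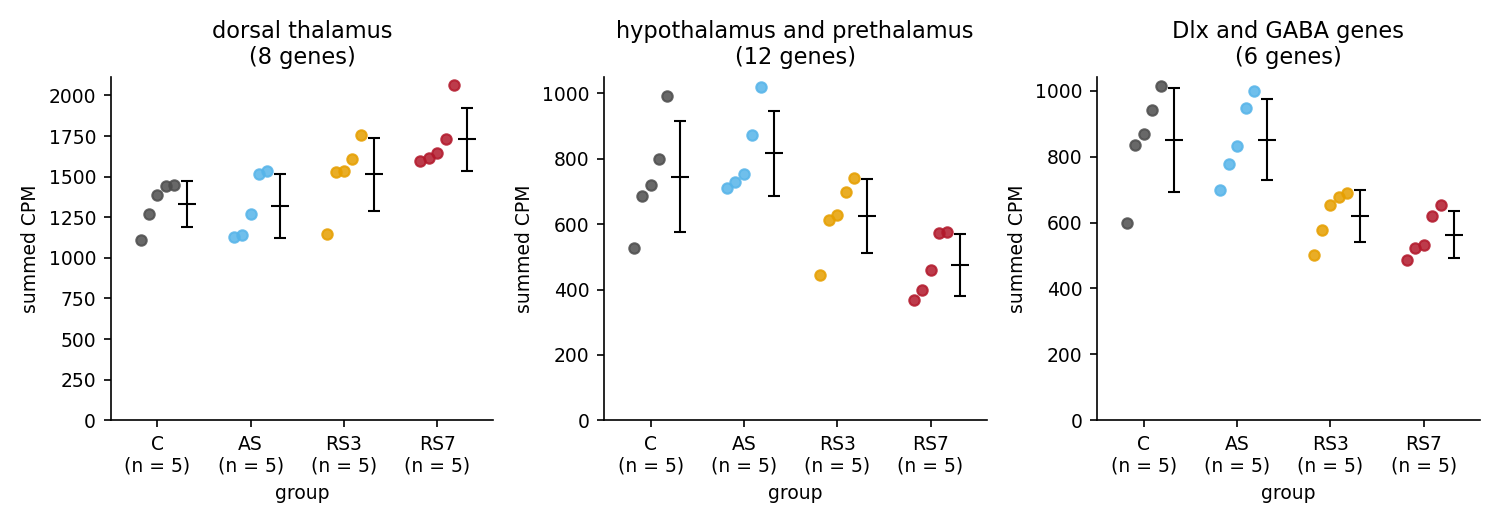
Summed level in CPM (vertical axes, from 0) of the matched dorsal thalamus, hypothalamus and prethalamus, and Dlx and GABA genes by group, 1 point per kept rat with mean ± SD. The dorsal thalamus sum of every RS7 rat lies at 1596 CPM or above, over all C and AS rats, and both other sums have their lowest group means in RS7, at 475 and 562 CPM.

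Of the proteins known to act with FOXP2, only the corepressor gene Ctbp2 could be matched, 1 of 10 listed. Ctbp2 is on the study's gene list and so was not chosen independently of these rats. Its r was -0.53 (rho = -0.50, adjusted permutation p = 0.288 for r and 0.36 for rho), and over all 24 rats it was 0.057. From AS to RS7 it fell by 0.29 on the log2 scale (standard error 0.071, edgeR adjusted p = 0.0339), from 28.9 ± 2.82 to 23.7 ± 1.56 CPM. Of all genes 0.481% fell. The call of Ctbp2 was kept in 4 of 10 fits without 1 rat and was not made over all 24 rats (edgeR adjusted p = 0.167). From C to RS7 its log2 fold change was -0.30 (edgeR adjusted p = 0.0638). Foxp1 and Foxp4, the partners within the subfamily, were not analysed here.

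Genes reported elsewhere as targets of FOXP2 did not share a direction. Of 13 listed, 3 could be matched. These 3 are on the study's gene list, so they too were not chosen independently of these rats. Slit2, an axon guidance ligand, had r = -0.64 (rho = -0.75, adjusted permutation p = 0.146 for r and 0.119 for rho), and it kept r = -0.66 without the 2 farthest rats. Its receptor gene Robo1 had r = 0.38 and the transcription factor gene Mef2a had r = 0.30. None of the 3 passed between groups from AS to RS7 (edgeR adjusted p = 0.122 for Slit2, 0.08 for Robo1 and 0.0563 for Mef2a). Slit2 averaged 31.3 ± 4.62 CPM over the AS rats and 22.8 ± 4.74 CPM over the RS7 rats.

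Glial and vascular genes gave no common direction. The matched members are on the study's gene list and so were not chosen independently of these rats. Of the matched astrocyte genes, Slc1a3 (r = -0.72, rho = -0.75) and the water channel gene Aqp4 (r = -0.46, but 0.30 over all 24 rats) ran against Foxp2. The glutamate transporter gene Slc1a2 (r = 0.31) did not. From AS to RS7 Slc1a2 rose by 0.42 on the log2 scale (standard error 0.078, edgeR adjusted p = 0.00949), where 1.19% of all genes rose. The call was kept in 10 of 10 fits without 1 rat. It was also kept with log2 total count as a covariate (edgeR adjusted p = 0.044), where 0.148% of all genes rose. With the dorsal thalamus covariate it was not kept (edgeR adjusted p = 0.431), in a fit where 0.00617% of all genes rose. The summed level of the 3 genes was 1873 ± 73.9 CPM in AS and 1897 ± 101 in RS7. Of the vascular genes, Plvap, of fenestrated endothelium, had r = 0.60 and the collagen genes Col4a1 and Col4a2 had r = -0.24 and -0.27. Plvap rose from AS to RS7 (0.53, edgeR adjusted p = 0.0396), a call kept in 4 of 10 fits without 1 rat. It was not called over all 24 rats (edgeR adjusted p = 0.101). With the share of the 10 most abundant genes as a covariate it was not called either (edgeR adjusted p = 0.0518). The lists of oligodendrocyte and microglia genes had no matched member and were not analysed here.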

How the data were processed

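RNA of the rPH block of 24 rats was sequenced as paired-end, poly(A)-selected libraries. Per the paper's methods and the labels, the authors trimmed reads with Trimmomatic (0.36), aligned them to rn6 with HISAT2 (2.0.5) and counted them with featureCounts. The deposited values are raw read counts per gene. Strand setting, pair counting and multi-mapping are not given in the sources used here. Column names were matched to rat numbers in the labels.

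The counts of the 20 rats the study kept were scaled by TMM and fitted over the 4 groups with edgeR (4.0.16, quasi-likelihood test, R 4.3.3), after filterByExpr with a minimum count of 10 had kept 16202 of 32883 genes. Adjusted p-values are Benjamini-Hochberg values over all these genes, with a threshold of 0.05. For r, log2 CPM with a prior count of 2 was used, and permutation p-values came from 100000 two-sided permutations of the rats' deviations. The edgeR p-values weigh a group difference against the spread between rats within groups. The permutation p-values weigh r against its values when the Foxp2 deviations were shuffled within groups. The members and gene lists were chosen with earlier results of these data known. Named were the followers with a symbol (25 of each direction were considered), the next genes with a symbol up to 10 negative ones, and the matched list genes. Symbols came from the study's supplementary gene list (744 tested genes), since none of the identifiers matched the RefSeq table. Alternatives were DESeq2 (1.42.0), limma-voom (3.58.1), other scalings, filters and covariates, and leaving out each rat in turn. The fit was tested on simulated data first. The values of 1 matched list gene are not reported here on their own.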

Additional observations from a re-analysis of the deposited data

Results flagged for a closer look

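In 276 groups of 5 rats, each a named gene or summed measure in 1 noise group, the gap of the highest or lowest rat to its neighbour was set against the whole range. It passed Dixon's 95% critical value of 0.71 in 13 groups, and chance passes about 1 in 20, or 5%. Among the positive followers, Lynx1 was 281.6 CPM in RS3 rat 7 against 316 to 328 in the other RS3 rats. Rap1gap was 302 CPM in RS7 rat 5 against 274 to 282. RS3 rat 9 stood out in Plekhd1 (56.6 CPM against 41.5 to 43.8) and in Bok (94.5 CPM against 64.6 to 72.5). Arhgap36, close to the negative followers, was 23.6 CPM in C rat 23 against 37.8 to 41.5.

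RS7 rat 5 had 383 CPM of the thalamic gene Ntng1 against 286 to 309 and a dorsal thalamus sum of 2066 CPM against 1596 to 1729. The same rat had 16.4 CPM of Lhx9, of the hypothalamus and prethalamus list, against 11.1 to 12.0. RS3 rat 11 was low in Slc17a6 (562 CPM against 712 to 759) and in Slc1a2 (190.1 CPM against 226 to 238). Avp was 55.9 CPM in RS3 rat 7 against 0.170 to 6.77. Aqp4 was 813 CPM in AS rat 13 against 923 to 960. The 10 most abundant genes held 18.8% of the counts in RS7 rat 4 against 13.1% to 14.0%.

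Foxp2 in rats the study left out, scaled with all 24 rats, exceeded the highest kept C rat (64.2 CPM) in AS rat 18 at 76.9 CPM and in RS7 rat 1 at 84.9 CPM.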

How the results depend on the processing

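No paired analysis was possible because the rat numbers are unique and the groups share none. Foxp2 kept its sign from C and AS to RS7 under every alternative, and the value that moved beyond the spread was that with the dorsal thalamus covariate (0.39 and 0.42). Positive and negative followers called from AS to RS7 numbered 11 and 2 by DESeq2 (1.56% of all genes higher, 0.691% lower), 15 and 3 by limma-voom (2.96% and 1.8%), 3 and 0 over all 24 rats (0.662% and 0.136%), and 0 and 0 with the dorsal thalamus (0.00617% and 0%) or the total count covariate (0.148% and 0.0123%). From C to RS7 they numbered 13 and 3 by DESeq2 (1.14% and 0.484%), with 1 positive without a filter (0.199%) and 1 negative after thinning (0.127%). Leaving out 1 rat gave 0 to 9 and 0 to 1 from AS to RS7, and 0 to 14 and 0 to 5 from C to RS7. Of the 25 positive and 25 negative followers, 13 and 10 were shared with Spearman's rho, 3 and 5 with all 24 rats, 11 and 7 after thinning, 10 and 14 with the share of the 10 most abundant genes regressed out, 8 and 2 without the 2 farthest rats, 8 and 6 in C and AS rats, 2 and 0 in RS3 and RS7 rats, 10 and 9 without C rats 21 and 22 and RS7 rat 4, and 12 and 10 with total count regressed out. Without TMM 7 negative followers were shared, and without 1 rat 3 to 23 and 7 to 22. Median r over all 24 rats was 0.057 for the forkhead partner, 0.19 for astrocyte and -0.50 for vascular genes. The forkhead partner had -0.75 in C and AS rats and -0.18 in RS3 and RS7 rats. With total count regressed out astrocyte genes had -0.24 and vascular genes 0.0929. Leaving out 1 rat moved the medians of Dlx and GABA genes between -0.62 and -0.36 and of vascular genes between -0.48 and -0.0672. Over all 24 rats r changed sign for Ctbp2 (0.057), Slc32a1 (0.0587), Tcf7l2 (-0.30), Sim1 (0.00973) and Aqp4 (0.30), and with total count regressed out for Col4a1 (0.0929). Chosen after seeing the data were the fits adjusted for the dorsal thalamus sum or total count, the subsets of noise groups, and the set that lacks the 3 rats with the highest share in their 10 top genes. The causes were not tested.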
